A study of Rattus norvegicus with 18 samples.

Results

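The genes described here encode receptors for neurotransmitters, leaving out the GABA-A receptor family, in medullary thyroid carcinomas of rats. They were chosen by gene symbol alone: the AMPA, kainate, NMDA and metabotropic glutamate receptors, the GABA-B receptor, the nicotinic and muscarinic acetylcholine receptors, the serotonin, dopamine and adrenergic receptors, the glycine receptors, and the P2X and P2Y receptors for ATP and other nucleotides. The rule found 92 genes among the 14506 genes that the array annotation names, each read by a single probe set. Of these 92 genes, 45 encode subunits of ligand-gated ion channels and 47 encode G protein-coupled receptors or their subunits.

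A neurotransmitter reaches a cell through receptors of these 2 kinds. A ligand-gated channel is built of several subunits and opens to sodium, calcium or chloride ions as soon as the transmitter binds, and the choice of subunits sets which ions pass and for how long. A G protein-coupled receptor acts more slowly, through adenylyl cyclase, phospholipase C or ion channels. Medullary thyroid carcinoma arises from the C cell, the calcitonin-secreting cell of the thyroid, which is an excitable endocrine cell that releases its hormone when calcium enters.

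Tumours came from MENX rats, of a Sprague-Dawley white eye and Wistar-Kyoto background, which carry a germline mutation of Cdkn1b, the gene of the cell cycle inhibitor p27Kip1. A group of 6 tumours was from rats homozygous for the mutation at 9 months of age, 6 were from heterozygous rats at 9 months and 6 from heterozygous rats at 18 months. All 18 rats were untreated and all carried the mutation in at least a single copy, so no comparison here is with normal thyroid or with wild-type animals. Each array was of a different animal. RNA was from whole tumour tissue, in which fewer cells of a type and less RNA per cell cannot be told apart.

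Values are on the log2 scale, on which a difference of 1 is a doubling, and medians of the 18 arrays lay between 7.55 and 7.65. The first principal component took 63.9% of the variance. It set apart replicates 1, 2, 3 and 6 of the heterozygous 18-month tumours, at 35.8 to 69.9, then homozygous replicate 3, at 23.95. The other 13 arrays lay at 4.215 or lower, the 18-month replicates 4 and 5 among them. C cell markers were high throughout: the mean of the 16 measured markers was between 10.36 and 12.02 in all 18 tumours. Of these 16 markers 12 rose with age and 0 fell, and their mean was 10.36 to 10.91 in heterozygous tumours at 9 months and 11.11 to 12.02 at 18 months. Markers of the follicular cells of the surrounding thyroid went the other way, with 9 of 10 tested lower at 18 months and a list mean of 11.04 to 11.14 at 9 months and 7.28 to 10.92 at 18 months. All 9 endothelial markers and all 6 tested adipocyte markers fell as well, as did 4 of 7 fibroblast and 3 of 5 tested mast cell markers. Of all genes tested 21.6% were higher at 18 months and 22.4% lower. Of 4 parathyroid markers 2 fell and 1 rose. Their list mean was 9.34 to 12.37 in heterozygous tumours at 9 months and 8.23 to 12.40 at 18 months. The part these shifts have in any receptor result below was not tested.

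Many receptor genes were barely above background. A gene was tested where its mean over the 18 arrays was 6.32 or more (the 30th percentile over probe sets), and 56 of the 92 receptor genes (60.9%) did so, against 78.4% of all genes. The other 36 were near background. They were Grik1 and Grik2 of the kainate receptors, Grin2b, Grin3a and Grin3b of the NMDA receptors, and Grm3, Grm5, Grm7 and Grm8 of the metabotropic glutamate receptors. Near background, too, were the glycine receptor subunits Glra2 and Glra3, the nicotinic subunits Chrna2, Chrna3, Chrna4, Chrna5, Chrna6, Chrna7, Chrna9, Chrnd and Chrng, and the muscarinic receptors Chrm2 and Chrm5. The monoamine receptors among them were Htr1a, Htr1f, Htr2a, Htr2b, Htr2c, Htr3b, Htr5b, Htr6, Drd1, Drd2, Drd3 and Adra1a, and the nucleotide receptors were P2ry1 and P2ry10. All 4 AMPA subunits, both GABA-B subunits, all 7 P2X subunits and both beta adrenergic receptors measured were tested, but only 7 of 16 nicotinic subunits, 6 of 14 serotonin receptors and 2 of 5 dopamine receptors.

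Genes of odorant receptors, which outside the nose should be mostly silent, gave a second reading of the background. The 53 such genes had a median level of 4.86 and a 95th percentile of 6.65, and 13.2% of them passed the level of 6.32. By that measure 43 receptor genes had no group mean above the 95th percentile, the 36 near background and 7 that were tested (Chrm4, Chrna1, Grin2a, Grin2d, Grm2, Grm6 and P2ry6). None of those 7 was called between ages. Glrb passed the level only through its 18-month tumours, so a difference between ages was built into its inclusion. Among the 36 near background, 6 had at least 1 group mean above 6.32. The rule used means, and single 18-month tumours lay higher, at up to 8.339 for Grm3, 8.205 for Grm7 and 7.352 for Adra1a. Fitted without the filter, 0 of the 36 were called between ages. The smallest adjusted p was 0.0626, for Grm7, with a difference of 0.93. Between genotypes 0 were called, with a smallest adjusted p of 0.648.

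**Figure D1:**
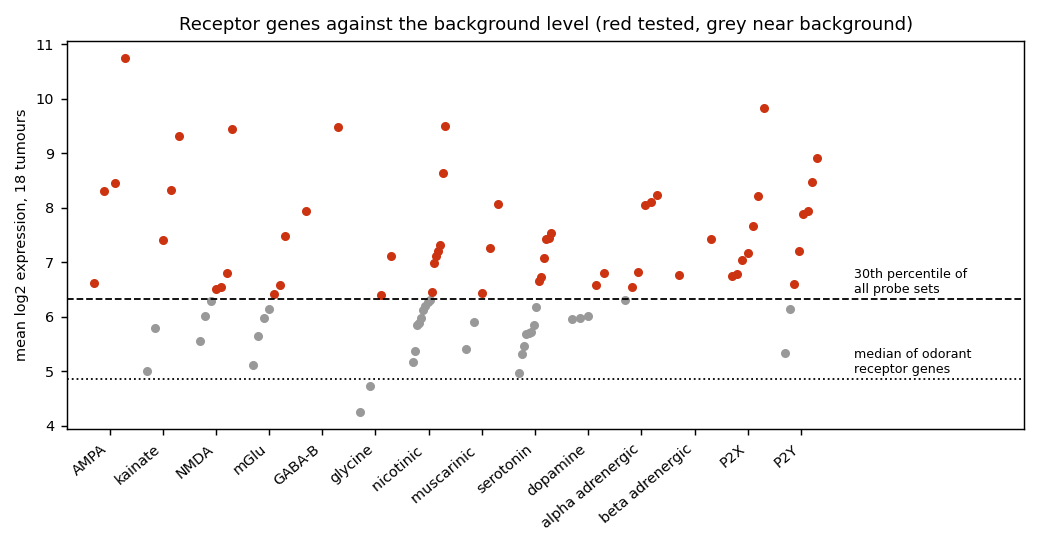
Mean log2 expression over 18 tumours (vertical axis) of each of the 92 receptor genes, by receptor class (horizontal axis), with tested genes in red and genes near background in grey. The dashed line is the 30th percentile of all probe sets, 6.32, and the dotted line the median of 53 odorant receptor genes, 4.86; 36 genes lie below the dashed line.

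Promoter sequences are shown for 4 of the receptor subunits called between ages without overlap, 3 that rose (Chrnb2, Gabbr2 and Grin1) and 1 that fell (Gria4). Each is 300 bases from RefSeq on build GRCr8, from 250 before the transcription start to 50 after it, read 5′ to 3′ on the minus strand, the strand of all 4 genes. They lie at chr2:177487257-177487556 (Chrnb2), chr5:66083646-66083945 (Gabbr2), chr3:28528705-28529004 (Grin1) and chr8:10319832-10320131 (Gria4). Capitals mark GGGCGG, the GC box that factors of the Sp family bind, in the first 3, and CAGCTG, a form of the E-box bound by basic helix-loop-helix factors, in Gria4, where 2 copies adjoin.
Chrnb2: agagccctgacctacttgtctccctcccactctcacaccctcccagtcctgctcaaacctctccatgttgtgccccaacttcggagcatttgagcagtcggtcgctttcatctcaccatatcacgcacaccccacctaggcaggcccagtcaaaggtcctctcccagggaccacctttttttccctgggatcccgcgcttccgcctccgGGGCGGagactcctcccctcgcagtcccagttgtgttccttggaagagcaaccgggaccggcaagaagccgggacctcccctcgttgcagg
Gabbr2: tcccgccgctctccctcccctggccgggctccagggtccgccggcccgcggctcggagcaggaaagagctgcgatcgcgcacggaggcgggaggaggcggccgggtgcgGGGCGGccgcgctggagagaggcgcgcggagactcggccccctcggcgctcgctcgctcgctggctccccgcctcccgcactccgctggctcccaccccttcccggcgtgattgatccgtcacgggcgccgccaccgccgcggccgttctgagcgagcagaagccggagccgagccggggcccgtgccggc
Grin1: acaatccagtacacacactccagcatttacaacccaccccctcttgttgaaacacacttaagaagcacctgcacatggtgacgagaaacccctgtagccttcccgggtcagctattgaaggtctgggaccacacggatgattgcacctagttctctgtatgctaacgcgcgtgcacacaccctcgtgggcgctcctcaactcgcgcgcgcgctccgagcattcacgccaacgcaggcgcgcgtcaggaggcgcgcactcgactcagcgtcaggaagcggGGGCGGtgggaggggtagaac
Gria4: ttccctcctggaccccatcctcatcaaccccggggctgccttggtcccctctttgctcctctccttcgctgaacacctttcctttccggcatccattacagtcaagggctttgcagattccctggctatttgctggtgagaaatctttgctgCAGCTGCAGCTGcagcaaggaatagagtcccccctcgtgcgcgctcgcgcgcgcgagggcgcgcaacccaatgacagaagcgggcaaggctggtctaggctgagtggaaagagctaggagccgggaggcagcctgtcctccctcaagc

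RefSeq promoters were at hand for 68 of the 92 receptor genes, 14 of the 17 that rose with age and 6 of the 10 that fell. Searched on both strands, GGGCGG stood in 10 of the 14 promoters of genes that rose, in 4 of the 6 of genes that fell and in 32 of all 68, against 33.1% of the 33469 RefSeq promoters of the same length. CAGCTG stood in 1 of the 14, the promoter of P2rx6, in 5 of the 6 and in 17 of the 68, against 15.1% of all. The 5 were those of Gria4, Chrm3, Adra2c, Chrnb1 and P2ry14. GCGGGGGCG, a site of the Egr factors that overlaps the GC box in Grin1, was in the promoters of Grin1 and Chrm3 and in 2.73% of all. The cyclic AMP response element TGACGTCA, in 1.83% of all promoters, was in 0 of the 14 and 0 of the 6. So were both parts of the RE1 element by which neuronal genes are silenced elsewhere, TTCAGCACC (0.356% of all) and GGACAGC (6.59% of all). Among the 68, GGACAGC was in 4, and TGACGTCA and TTCAGCACC were in 0. For motifs this rare, 0 matches in so few promoters cannot show that these genes lack them. The median GC content was 63% in the 14 promoters, 62.2% in the 6, 58.7% in the 48 of receptor genes not called and 51.7% in all. These matches describe letters in a window and are not measured sites.

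Heterozygous tumours at 18 months were compared with heterozygous tumours at 9 months to ask how receptor expression differed with age. Of the 56 receptor genes tested, 27 were called at an adjusted p under 0.05 (48.2%), 17 higher and 10 lower at 18 months. Over all 11370 genes tested 44.1% were called, 21.6% higher and 22.4% lower. At this filter the share of receptor genes called was thus near that of any gene. With a filter at the 50th percentile it was 81.0% of 21 receptor genes, against 51.5% of all genes. In 12 receptor genes (21.4%) the lowest tumour of one age lay above the highest of the other, against 18.1% of all genes. A change of at least 1 on the log2 scale was called in 11 (19.6%), against 8.05% of all genes. The 27 called, the 17 higher and these 11 include Glrb, which passed the filter only through its 18-month tumours. The median difference was 0.05 over the 56 receptor genes and -0.0045 over all genes, and the median size of the difference was 0.22 and 0.20.

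By kind of receptor, 16 of 28 tested channel subunits were called (57.1%), 11 higher and 5 lower, with a median size of difference of 0.49. Of 28 tested G protein-coupled receptors and subunits 11 were called (39.3%), 6 higher and 5 lower, with a median size of 0.13. Of all genes 44.1% were called, 21.6% higher and 22.4% lower. Whether the 2 kinds differ was not tested. By transmitter, 8 of 14 tested glutamate receptor genes were called (57.1%), 4 of 10 acetylcholine receptor genes (40%) and 7 of 15 monoamine receptor genes (46.7%). For GABA-B and glycine 3 of 4 were called, Glrb among them, and for nucleotides 5 of 13 (38.5%). The age counts by class and gene list below stand against the same shares of all genes, and none was tested as a set.

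**Figure D2:**
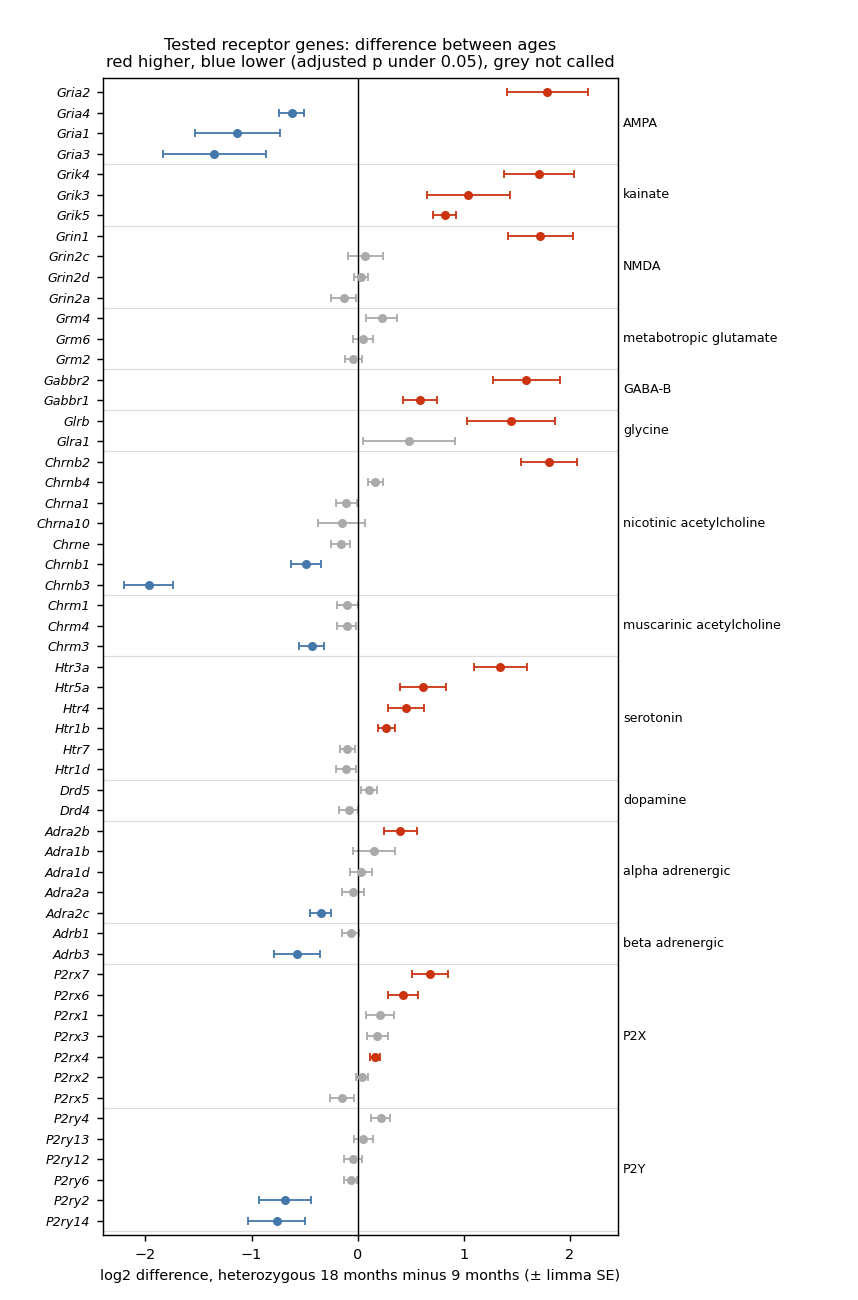
Log2 difference between heterozygous tumours at 18 and at 9 months (horizontal axis, points, with limma's SE as bars; 6 tumours a group) for the 56 tested receptor genes, by class. Called genes are red where higher (17) and blue where lower (10), and the 29 others are grey; the AMPA and nicotinic subunits spread to both sides, from 1.78 (Gria2) to -1.35 (Gria3) and from 1.80 (Chrnb2) to -1.97 (Chrnb3).

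The 4 AMPA receptor subunits, which form the fast glutamate-gated cation channel, split between ages: Gria2 rose and Gria1, Gria3 and Gria4 fell. Gria2 encodes GluA2, the subunit that makes the channel nearly impermeable to calcium. Its level was 6.99 to 7.65 (median 7.52) in the heterozygous tumours at 9 months and 7.85 to 10.10 (median 9.46) at 18 months. All 6 tumours at 18 months were above all 6 at 9 months, a difference of 1.78 (SE 0.38, adjusted p = 0.00178) or 3.45-fold. The lowest 18-month values, 7.85 and 8.56, were of replicates 4 and 5.

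Gria3, for GluA3, was at 10.82 to 11.34 (median 11.11) at 9 months and 7.25 to 11.17 (median 9.86) at 18 months. The ages overlapped, because replicates 4 and 5 at 18 months (11.17 and 11.14) lay within the range at 9 months, while replicate 1 (7.25) lay far below. The difference was -1.35 (SE 0.49, adjusted p = 0.0324). The Gria3 call was lost without any of 7 arrays, replicates 1, 2, 3 and 4 at 9 months and replicates 1, 2 and 3 at 18 months. Without 18-month replicate 1 the difference was -0.85 (adjusted p = 0.0516), and the largest adjusted p among the 7 was 0.0705. With only the 2 groups in the fit the call was lost as well (adjusted p = 0.0682). In the same 6 tumours, in replicate order, the mean of the follicular markers was 7.28, 9.29, 8.97, 10.92, 10.63 and 9.43, lowest where Gria3 was lowest. Gria3's own values in that order were 7.25, 9.52, 9.06, 11.17, 11.14 and 10.20, and the part of follicular tissue in its fall was not tested.

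Gria1, for GluA1, the subunit most tied to activity-dependent insertion of receptors at synapses, was at 8.26 to 9.19 (median 8.84) at 9 months and 5.56 to 8.77 (median 8.05) at 18 months. A single tumour, 18-month replicate 2, had the value of 5.56, and the ages overlapped. The difference was -1.13 (SE 0.40, adjusted p = 0.0299), and -0.72 without replicate 2 (adjusted p = 0.0472). The Gria1 call was lost without replicate 2, 3 or 6 at 9 months or replicate 3 at 18 months, with adjusted p up to 0.0663. It was also lost with the replicate number as a block (adjusted p = 0.0504) and with only the 2 groups in the fit (adjusted p = 0.0592).

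Gria4, for GluA4, fell by less but with no overlap. Its levels were 6.76 to 6.96 (median 6.90) at 9 months and 5.87 to 6.62 (median 6.21) at 18 months, a difference of -0.62 (SE 0.12, adjusted p = 0.000856). At 18 months 4 of 6 tumours were below the background level of 6.32, so the fall ended near background.

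**Figure D3:**
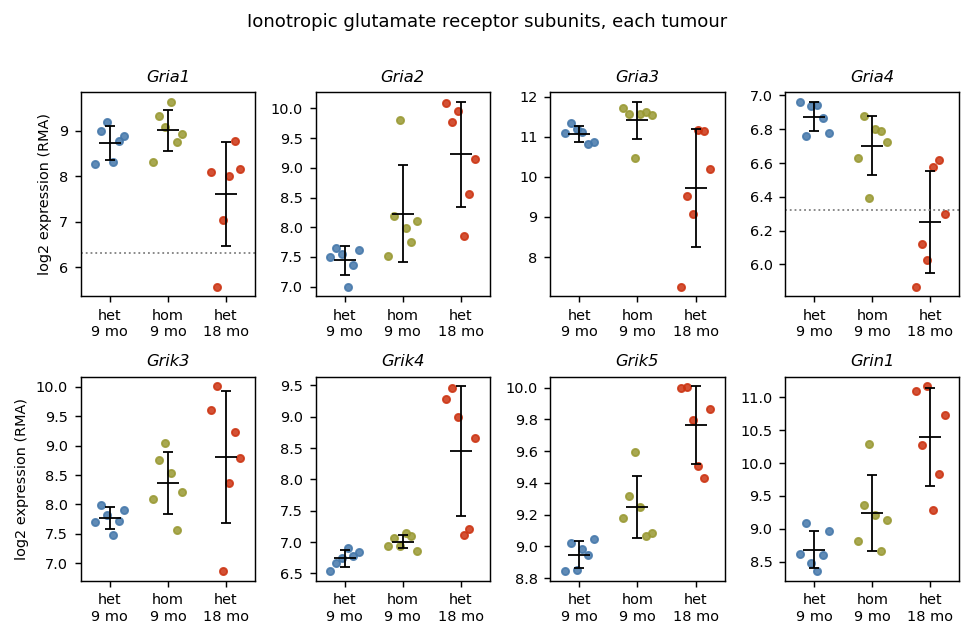
Log2 expression (vertical axes, scaled to each gene) of the 4 AMPA subunits, the 3 tested kainate subunits and Grin1 in each tumour (points), with group mean and SD, 6 tumours a group; the dotted line is the background level of 6.32. Gria2 rose with age while Gria1, Gria3 and Gria4 fell, and the homozygous tumour with the highest Gria2 (9.81) had the lowest Gria3 of its group (10.48).

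All 3 tested kainate receptor subunits rose. Kainate receptors are glutamate-gated channels that act on both sides of the synapse; Grik4 and Grik5 encode the high-affinity subunits GluK4 and GluK5, which need a partner from Grik1, Grik2 or Grik3 to form a channel. Grik4 was at 6.53 to 6.90 (median 6.76) at 9 months and 7.11 to 9.46 (median 8.83) at 18 months, a difference of 1.71 (SE 0.33, adjusted p = 0.00101). The 18-month tumours lay in a low pair, replicates 4 and 5 at 7.11 and 7.21, and 4 others between 8.66 and 9.46, and all 6 were above every tumour at 9 months.

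Grik5 was at 8.84 to 9.05 (median 8.96) at 9 months and 9.43 to 10.01 (median 9.83) at 18 months. Its difference of 0.82 was smaller than that of Grik4, but its spread was narrow (SE 0.11, adjusted p = 0.000204) and the ages did not overlap. Grik3, for GluK3, was at 7.48 to 7.99 (median 7.77) at 9 months and 6.86 to 10.02 (median 9.01) at 18 months, a difference of 1.04 (SE 0.39, adjusted p = 0.0389). Here replicate 3 at 18 months (6.86) was below every tumour at 9 months and the 5 others, from 8.36, were above. The Grik3 call was lost without any of 9 arrays, replicates 1, 3, 4, 5 and 6 at 9 months and 1, 2, 5 and 6 at 18 months, with differences of 0.80 to 1.07 and adjusted p up to 0.0999. Without replicate 3 at 18 months it was kept, with a difference of 1.43. The call was also lost with the replicate block (adjusted p = 0.0535), with only the 2 groups in the fit (adjusted p = 0.0654) and without 18-month replicates 4 and 5 together (adjusted p = 0.0587). Grik1 and Grik2, the other partners, were near background.

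Of the NMDA receptor, the calcium-permeable glutamate channel that needs glycine or serine as a co-agonist, Grin1 was the only tested gene to be called. Grin1 encodes GluN1, the subunit every NMDA receptor contains. It was at 8.35 to 9.08 (median 8.61) at 9 months and 9.28 to 11.18 (median 10.50) at 18 months, with no overlap and a difference of 1.72 (SE 0.31, adjusted p = 0.000708). The glutamate-binding GluN2 partners tested, Grin2a (-0.13), Grin2c (0.07) and Grin2d (0.03), had differences smaller than their SE or close to it, and Grin2b was near background.

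None of the 3 tested metabotropic glutamate receptors was called; the smallest p was that of Grm4, a receptor that lowers cyclic AMP, at 0.22 (SE 0.15, adjusted p = 0.227). Partner genes of glutamate receptors gave 10 higher and 4 lower of 23 tested, with a median difference of 0.23 against -0.0045 for all genes. The 3 with the smallest p all rose. They were Shank1 (0.92, adjusted p = 0.000239) and Shank2 (0.66, adjusted p = 0.000975), scaffolds of the postsynaptic density, and Neto2 (1.83, adjusted p = 0.000915), an auxiliary subunit of kainate receptors.

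Both subunits of the GABA-B receptor rose. GABA-B is the slow receptor for the inhibitory transmitter GABA; Gabbr1 binds the ligand and Gabbr2 carries the receptor to the membrane and couples it to Gi and Go proteins. Gabbr2 was at 6.84 to 7.42 (median 7.25) at 9 months and 7.70 to 9.45 (median 8.95) at 18 months, without overlap, a difference of 1.59 (SE 0.32, adjusted p = 0.0012). Gabbr1 rose by 0.59 (SE 0.16, adjusted p = 0.00748), from 9.11 to 9.28 at 9 months to between 9.16 and 10.24 at 18 months, with the lowest 18-month tumour, replicate 5, inside the younger range.

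The glycine receptor is a chloride channel whose beta subunit, Glrb, tethers it to the scaffold gephyrin. Glrb was at 5.70 to 6.09 at 9 months, all below the background level, and at 5.81 to 8.53 (median 7.72) at 18 months. At 18 months 4 tumours were at 7.33 or higher and replicates 4 and 5, at 5.81 and 5.89, stayed with the young tumours. The difference of 1.45 (SE 0.42, adjusted p = 0.00993) starts from values below the background level. Glra1, an alpha subunit, differed by 0.48 (SE 0.43, adjusted p = 0.391), with 9.17 in 18-month replicate 2 and 6.37 to 7.91 in the other 5. Of the partner list of the glycine receptor 2 genes were tested, and Slc6a9, the glycine transporter GlyT1, fell by 1.50.

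Nicotinic receptors are acetylcholine-gated cation channels of 5 subunits. A pair of their neuronal beta subunits had the largest differences of the 56 genes, in opposite directions. Chrnb2, for the beta2 subunit of the commonest receptor in brain, was at 8.35 to 8.93 (median 8.74) at 9 months and 9.52 to 10.96 (median 10.74) at 18 months, a difference of 1.80 (SE 0.26, adjusted p = 0.0003) or 3.48-fold. Chrnb3, for the accessory beta3 subunit, had nearly the same level in the 6 heterozygous tumours at 9 months, 9.49 to 9.60, and 6.39 to 8.25 (median 7.74) at 18 months. Its difference of -1.97 (SE 0.23, adjusted p = 0.000167), or 3.91-fold lower, had the smallest p of the 56 genes. Neither gene's ages overlapped.

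The alpha subunits with which beta2 and beta3 are known to assemble in neurons, among them Chrna3, Chrna4 and Chrna6, were near background. Of the subunits of the muscle receptor, Chrnb1 fell, from 6.83 to 7.33 (median 7.17) at 9 months to 6.40 to 6.93 (median 6.65) at 18 months, a difference of -0.49 (SE 0.14, adjusted p = 0.0102). Chrna1 (-0.11) and Chrne (-0.16) were not called. Skeletal muscle markers, of which 1 of 10 fell and 0 rose, had a list mean of 9.19 to 11.29 at 9 months and 6.59 to 10.46 at 18 months, and the part of muscle tissue in the Chrnb1 value was not tested. Chrnb4 missed the threshold (0.17, SE 0.07, adjusted p = 0.0673).

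Of the muscarinic receptors, which couple acetylcholine to G proteins, Chrm3, the Gq-coupled receptor of glands, fell by 0.43 (SE 0.12, adjusted p = 0.00678). It was at 7.30 to 7.63 (median 7.50) at 9 months and 6.68 to 7.55 (median 6.96) at 18 months, with overlap through the highest 18-month tumour. Chrm1 (-0.10) and Chrm4 (-0.11) were not called. Genes of acetylcholine supply, breakdown and receptor assembly gave 4 higher and 1 lower of 10 tested. They included Ric3, a chaperone of nicotinic receptors (0.81), Lynx1, a membrane protein that binds them (1.01), and Rapsn, which clusters the muscle receptor (-0.57).

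**Figure D4:**
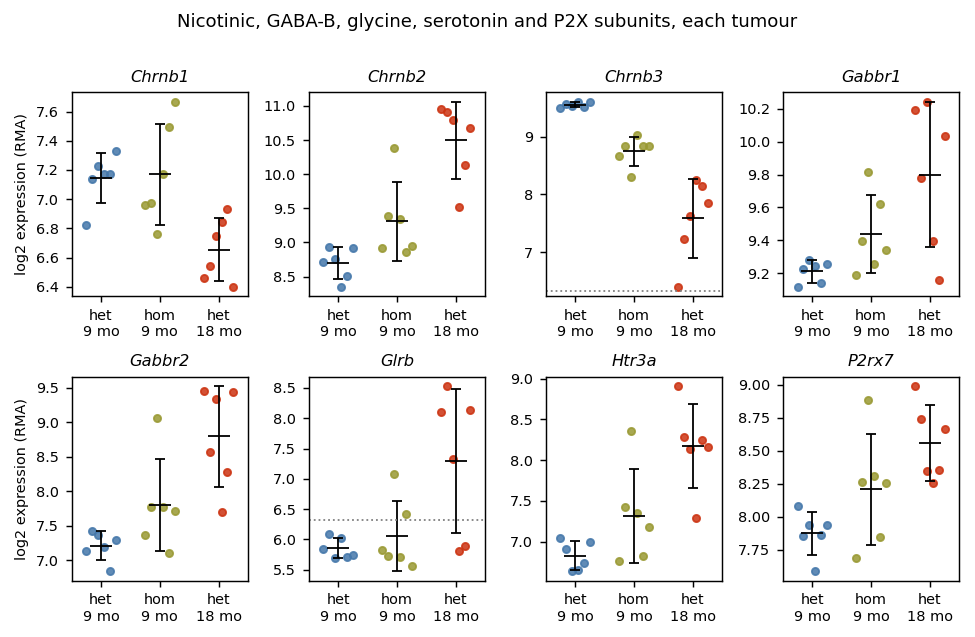
Log2 expression (vertical axes, scaled to each gene) in each tumour (points), with group mean and SD, 6 tumours a group, for 3 nicotinic subunits, both GABA-B subunits, Glrb, Htr3a and P2rx7; the dotted line is the background level of 6.32. Chrnb3 was highest in every heterozygous tumour at 9 months (9.49 to 9.60), and Glrb at 18 months divided into 4 tumours above the line and 2 below.

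Serotonin receptors were tested for 6 genes, of which 4 rose and 0 fell. Htr3a, for the channel-forming subunit of the 5-HT3 receptor and the only channel among serotonin receptors tested, was at 6.63 to 7.04 (median 6.82) at 9 months and 7.29 to 8.91 (median 8.20) at 18 months, without overlap, a difference of 1.34 (SE 0.25, adjusted p = 0.000844). The other 3 are G protein-coupled receptors with smaller differences. Htr1b, a Gi-coupled autoreceptor in neurons, rose by 0.27 (SE 0.08, adjusted p = 0.0116), with 7.14 to 7.60 at 9 months and 7.50 to 7.94 at 18 months.

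Htr5a (0.62, SE 0.22, adjusted p = 0.029) and Htr4 (0.45, SE 0.17, adjusted p = 0.036), a Gs-coupled receptor, had wide spreads at 18 months. Htr5a was at 7.96 and 7.84 in 18-month replicates 2 and 3, and at 6.92 or lower in the other 4, against 6.26 to 6.61 at 9 months. Its call was lost without replicate 1 or 4 at 9 months or replicate 2 or 3 at 18 months (adjusted p up to 0.0736), or with only the 2 groups in the fit (adjusted p = 0.0659). Htr4 lost its call without replicate 1, 2, 3, 5 or 6 at 9 months or replicate 2 or 3 at 18 months (adjusted p up to 0.0901), or with only the 2 groups in the fit (adjusted p = 0.0568). The Htr7 and Htr1d differences, -0.10 and -0.11, were not called.

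Neither of the 2 tested dopamine receptors was called, Drd5 having the smaller p (0.10, SE 0.08, adjusted p = 0.279). Of adrenergic receptors, which bind noradrenaline and adrenaline, the Gi-coupled Adra2c fell, from 8.10 to 8.26 (median 8.16) at 9 months to 7.58 to 8.06 (median 7.85) at 18 months, a small difference without overlap (-0.35, SE 0.10, adjusted p = 0.008). Its close relative Adra2b rose by 0.40 (SE 0.15, adjusted p = 0.0427), a call lost without any of 7 arrays, replicates 1, 2, 3, 4 and 6 at 9 months and 5 and 6 at 18 months (adjusted p up to 0.105). The Adra2b call was lost, too, with the replicate block (adjusted p = 0.0749), array weights (adjusted p = 0.0719), no filter (adjusted p = 0.0513) and without 18-month replicates 4 and 5 together (adjusted p = 0.0913). Adra2a, the third of that group, differed by -0.04 and was not called.

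Adrb3, the beta receptor of fat cells, was at 6.49 to 7.95 (median 6.91) at 9 months and 6.13 to 6.76 (median 6.48) at 18 months, with wide overlap and a difference of -0.57 (SE 0.21, adjusted p = 0.0384). The call was lost without any of 8 arrays, replicates 3, 4 and 5 at 9 months and 1, 2, 3, 5 and 6 at 18 months (adjusted p up to 0.0884), with only the 2 groups in the fit (adjusted p = 0.0712) and with array weights (adjusted p = 0.0836). Adipocyte markers, 6 of 6 lower at 18 months, had a list mean of 7.86 to 9.22 at 9 months and 6.97 to 8.29 at 18 months. The highest Adrb3, 7.95, was in 9-month replicate 3, which also had that highest adipocyte mean of 9.22; the part of fat in the Adrb3 difference was not tested. Genes of monoamine supply and clearance gave 2 higher and 1 lower of 10 tested. The 3 were Ddc, the decarboxylase that makes serotonin and dopamine (1.33, also a marker of C cells), Slc18a1, a vesicular monoamine transporter (1.02), and Maoa, which degrades monoamines (-0.35).

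Markers of peripheral neurons rose in 3 of 10 tested, Elavl4 (1.70), Elavl3 (1.95) and Nefl (1.48), and fell in 0. Their list mean was 6.68 to 7.01 at 9 months and 7.10 to 8.03 at 18 months. The markers that define noradrenergic neurons, Dbh, Th and Phox2a, and peripherin (Prph) were not called, and Dbh was at 6.16 to 6.89 over the 18 tumours, near background. Of Schwann cell markers 0 rose and 2 fell of 5 tested. The part of nerve tissue in the receptor values was not tested.

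Among receptors for ATP, the P2X channels gave 3 higher and 0 lower of 7 tested, and the P2Y G protein-coupled receptors 0 higher and 2 lower of 6 tested. P2rx7, the channel of macrophages and other cells that opens at high ATP, was at 7.59 to 8.08 (median 7.90) at 9 months and 8.26 to 8.99 (median 8.51) at 18 months, without overlap (0.68, SE 0.17, adjusted p = 0.00397). P2rx4 had the smallest called difference of all, 0.16 (SE 0.05, adjusted p = 0.0114), from 9.68 to 9.84 at 9 months to 9.88 to 10.04 at 18 months, again without overlap. P2rx6 rose by 0.43 (SE 0.14, adjusted p = 0.024), and that call was lost without replicate 1 or 2 at 9 months or replicate 1, 2 or 3 at 18 months (adjusted p up to 0.0622), and with only the 2 groups in the fit (adjusted p = 0.06).

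Macrophage markers moved in both directions, 3 higher (C1qa, C1qb and C1qc) and 1 lower (Adgre1) of 9 tested. Their list mean was 8.28 to 8.64 at 9 months and 8.27 to 9.21 at 18 months, where the other 5 tumours were at 8.55 or lower and replicate 6 at 9.21. Their part in the P2X values was not tested.

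P2ry14, the receptor for UDP-glucose, was at 8.58 to 8.89 (median 8.67) at 9 months and 6.59 to 8.61 (median 8.17) at 18 months, a difference of -0.76 (SE 0.27, adjusted p = 0.0295). Replicates 4, 5 and 6 at 18 months, at 8.54 to 8.61, were at the young level or just below it, and replicate 1 was lowest. Without replicate 1 the P2ry14 difference was -0.50 (adjusted p = 0.0489), and the call was lost without replicate 6 at 9 months or replicate 2 or 3 at 18 months (adjusted p up to 0.0714) and with only the 2 groups in the fit (adjusted p = 0.0648). P2ry2, the Gq-coupled receptor for ATP and UTP of epithelia, was at 8.98 to 9.39 (median 9.14) at 9 months and 7.57 to 9.11 (median 8.54) at 18 months. Replicates 5 and 6 at 18 months overlapped the younger tumours, and the difference of -0.68 (SE 0.24, adjusted p = 0.0312) lost its call without replicate 1, 5 or 6 at 9 months or replicate 1, 2 or 3 at 18 months (adjusted p up to 0.0793). P2ry4 (0.22, adjusted p = 0.0539) just missed the threshold.

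Genes that release, degrade or respond to extracellular nucleotides, adenosine receptors included, gave 3 higher and 10 lower of 16 tested, with a median difference of -0.61 against -0.0045 for all genes. The 3 with the smallest p fell, all of them enzymes that hydrolyse extracellular nucleotides: Entpd1 (-0.95), Entpd3 (-1.16) and Enpp3 (-1.02). Entpd1 is also a gene of endothelial cells, and all 9 endothelial markers fell. The part of endothelial cells in the Entpd1 difference was not tested.

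Downstream of the G protein-coupled receptors, genes of G proteins, adenylyl cyclases and phospholipases gave 9 higher and 3 lower of 20 tested. The 3 with the smallest p were Adcy3, an adenylyl cyclase that rose by 1.05, and Gnaz and Gnao1, alpha subunits of the Gi family that rose by 1.32 and 1.55. Genes of receptor desensitisation gave 7 higher and 2 lower of 15. The 3 with the smallest p were Grk3, a receptor kinase that rose by 0.94, Rgs7, which speeds the return of Go to rest and rose by 1.54, and Grk5, another receptor kinase, which fell by 1.91.

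Of receptor genes that are next to each other among protein-coding genes in RefSeq's GRCr8 there were 9 pairs, with both genes tested in 4. Both were called in 2 of the 4, and moved the same way: Gria2 and Glrb (1.78 and 1.45), and P2rx4 and P2rx7 (0.16 and 0.68). P2ry6 (-0.07) and P2ry2 (-0.68) are neighbours of which P2ry2 was called, and P2ry13 and P2ry12 (0.05 and -0.05) were not called. Chrnb3 lies beside Chrna6, and Htr3a beside Htr3b, both of them near background.

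The called genes were chosen by their age difference on these same arrays, so their order among the tumours is no separate evidence. The same count over all called genes was not made. Among the 18-month tumours replicate 4 or 5 was the least changed for 14 of the 17 genes that rose and for 10 of the 10 that fell. Replicates 4 and 5 also had the lowest C cell marker means of their group, 11.11 and 11.48 against 11.98 to 12.02 in the other 4. They had the highest follicular means, 10.92 and 10.63, and the part of cell types in these receptor values was not tested. With replicates 4 and 5 left out, 28 receptor genes were called between ages, 18 higher and 10 lower, against 53.9% of all genes.

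**Figure D5:**
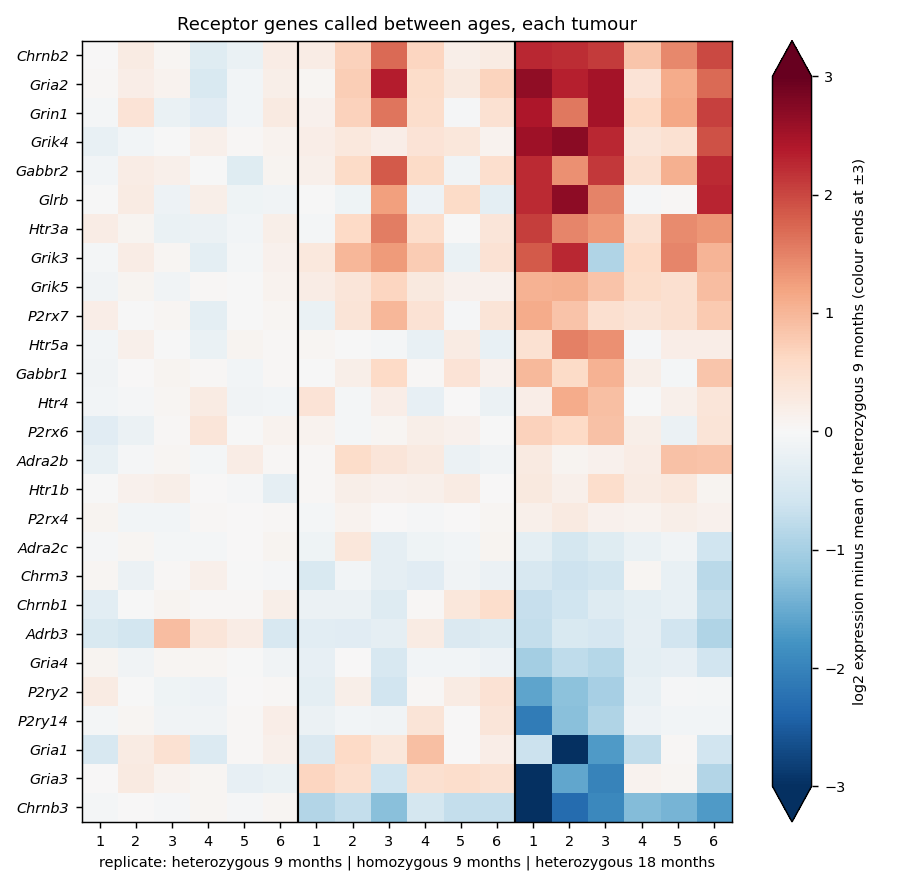
Log2 expression minus the mean of the heterozygous 9-month tumours (colour, ending at 3 either way) for the 27 called receptor genes (rows, in order of difference between ages) in each of the 18 tumours (columns, by group and replicate). At 18 months, replicates 4 and 5 are paler than the other 4 for most genes, and homozygous replicate 3 has the strongest colour of its group for Chrnb2 (10.38), Gria2 (9.81) and Gabbr2 (9.06).

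Homozygous and heterozygous tumours at 9 months were compared to ask how expression at the same age differed with a second mutant copy of Cdkn1b. No receptor gene was called (limma, 0 of 56, smallest adjusted p 0.355), and 0.0% of all 11370 genes were. At an unadjusted p under 0.05 there were 4 receptor genes (7.14%), against 8.75% of all genes. The groups did not overlap in 2 receptor genes (3.57%), Chrnb3 and Grik5, against 1.57% of all genes. The median difference was 0.02 over the receptor genes, with a median size of 0.10, against 0.08 for all genes.

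Chrnb3 had the smallest p. It was at 8.29 to 9.02 (median 8.84) in homozygous tumours and 9.49 to 9.60 in heterozygous tumours of the same age, a difference of -0.80 (SE 0.23, adjusted p = 0.355). All 6 homozygous tumours were below all 6 heterozygous tumours. That SE is from a spread shared by all 3 groups, the 18-month tumours included. The SD of Chrnb3 was 0.05 in heterozygous tumours at 9 months, 0.25 in homozygous tumours and 0.69 at 18 months. With only the 2 groups in the fit the Chrnb3 difference was called (adjusted p = 0.00751), as it was with array weights (-0.70, adjusted p = 0.0205); in those fits 0.211% and 1.04% of all genes were called. The other lower values with the smallest p were those of Chrm4 (-0.19, SE 0.09, adjusted p = 0.56) and Chrm3 (-0.24, SE 0.12, adjusted p = 0.579).

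Higher in homozygous tumours, without a call, were Grik5 (0.30, SE 0.11, adjusted p = 0.464), Chrnb2 (0.61, SE 0.26, adjusted p = 0.535) and Gria2 (0.78, SE 0.38, adjusted p = 0.577). Grik5 was at 9.07 to 9.60 against 8.84 to 9.05 in heterozygous tumours, without overlap. Homozygous replicate 3 had the highest value of all 3 genes in its group. Without it the differences were 0.23, 0.40 and 0.47, and none was called. That tumour also had the highest C cell marker mean of the homozygous tumours, 11.94 in a range from 10.77, and the lowest follicular mean, 10.13 in a range up to 11.07. It was the tumour of its group nearest to the 18-month tumours for 10 of the 17 genes that rose with age and for 6 of the 10 that fell. It reached the range of the 18-month tumours for 14 and 8 of them. Reaching that range meant only being at or past the least-changed 18-month tumour. For Grik3 that tumour was at 6.86, below every tumour at 9 months, so all of them counted. The other 5 homozygous tumours reached that range for 6 to 11 of the 17 and for 2 to 6 of the 10. The heterozygous 9-month tumours reached it for 2 to 6 of the 17 and for 2 to 5 of the 10. These genes were chosen by their age difference in these same data, and no count over all genes was made. In none of the lists of receptor partners and cell type markers was a gene called between genotypes.

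Homozygous tumours at 9 months were last set against heterozygous tumours at 18 months, where genotype and age differ together and cannot be told apart. This comparison shares its tumours with the other 2, so it adds no independent count. Of the 56 receptor genes 18 were called, 8 higher and 10 lower in the homozygous tumours, against 29.8% of all genes (16.2% higher and 13.6% lower). The 10 include Glrb, which passed the filter only through its 18-month tumours. The tumours of 2 receptor genes, Chrnb3 and P2rx4, did not overlap, against 2.25% of all genes, and 7 had a called difference of at least 1, against 4.01%.

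Among the called genes, the 5 largest higher values in homozygous tumours were those of Gria3 (1.69), Gria1 (1.40), Chrnb3 (1.17), P2ry14 (0.83) and P2ry2 (0.68). The 5 largest called lower values were those of Grik4 (-1.44), Glrb (-1.24), Chrnb2 (-1.19), Grin1 (-1.16) and Gabbr2 (-0.997). Gria2, at -1.003, differed by slightly more than Gabbr2 but missed the threshold (adjusted p = 0.0561). Chrnb3 in homozygous tumours, 8.29 to 9.02, thus lay wholly between the heterozygous tumours at 9 months (9.49 to 9.60) and at 18 months (6.39 to 8.25), the only receptor gene whose 3 groups were free of overlap in all 3 comparisons.

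Single arrays decided 4 of these 10 calls. P2ry14 lost its call without any of 4 arrays (adjusted p up to 0.0732), namely replicates 4 and 6 of the homozygous tumours and replicates 2 and 3 of the 18-month tumours. Gabbr2 lost it without any of 6 (adjusted p up to 0.0664), namely replicates 1, 5 and 6 of the homozygous tumours and replicates 1, 3 and 6 of the 18-month tumours. Glrb lost it without any of 8 (adjusted p up to 0.0857), namely replicates 1, 2, 4 and 6 of the homozygous tumours and replicates 1, 2, 3 and 6 of the 18-month tumours. P2ry2 lost it without any of 13 (adjusted p up to 0.107), namely replicates 2, 4, 5 and 6 of the homozygous tumours, replicates 1, 2, 3, 4, 5 and 6 of the heterozygous 9-month tumours and replicates 1, 2 and 3 of the 18-month tumours. With only the 2 groups in the fit 5 receptor genes were called in place of 18, 1 higher and 4 lower, against 6.23% of all genes.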

How the data were processed

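Each of 18 tumours was hybridised to an Affymetrix array, after RNA purification with DNase treatment and whole-transcript amplification per the labels' protocols. The deposited table holds log2 values from the authors. The submitters' processing notes name RMA and the software Expression Console 1.3.0.187 of Affymetrix. Arrays give no depth, and their number, 6 a group, limits the precision. Levels were compared between probe sets only against the background level and the odorant receptor genes, and in calling C cell markers high. Whether probe sets respond alike was not tested.

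Of 29214 probe sets, 15310 had 1 gene symbol in the platform annotation, 323 several and 13581 none. Of 14506 genes 527 had several probe sets, of which the one with the highest mean was used, and none of these was a receptor gene described here. The gene IDs of all 92 receptor genes matched RefSeq (GRCr8). Genes with a mean at or above the 30th percentile of all probe sets (6.32) were tested, 11370 in all.

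A linear model with a mean for each of the 3 groups was fitted by limma 3.58.1 in R 4.3.3 (lmFit and eBayes, two-sided). P-values were adjusted by Benjamini-Hochberg over the 11370 genes, and a gene was called at an adjusted p under 0.05; all SEs and adjusted p-values are from this fit. The procedure was tested on simulated data. Replicates are different animals, with no sex, litter or array date used here.

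Every called receptor gene was named between ages, the 3 smallest p in each direction between genotypes, and the 5 largest in each direction in the third comparison. Of a class without a call the gene with the smallest p was named, and of each list of partner genes up to 3 called genes with the smallest p. Receptor genes and lists were chosen with earlier results of these data known. Alternatives were other filters, scalings, weights, blocks and fits, and each array left out. Receptor genes without a RefSeq promoter were not searched for motifs.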

Additional observations from a re-analysis of the deposited data

Results flagged for a closer look

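In each group of 6 tumours the highest and lowest value of the 30 receptor genes that the naming rule chose was set against its nearest neighbour by Dixon's criterion, in 90 checks, and 6 tumours stood apart. Chance gives about 1 in 20 such groups. Homozygous replicate 3 accounted for 4 of the 6. It was highest for Gria2 (9.812, next 8.184), Chrnb2 (10.385, next 9.381) and Gabbr2 (9.055, next 7.775), and lowest for Gria3 (10.477, next 11.533). Homozygous replicate 4 was highest for Adrb3 (7.268, next 6.752), and that tumour had the highest adipocyte marker mean of its group, 8.81. The part of fat in that Adrb3 value was not tested. Among the 18-month tumours, replicate 2 was highest for P2rx4 (10.039, next 9.931). Over all 92 receptor genes 21 of 276 checks stood apart.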

How the results depend on the processing

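No direction reversed among the named receptor genes under the 28 alternatives. Of the 27 calls between ages 17 were kept in each alternative that tested the gene (12 higher and 5 lower), and 10 were lost in at least 1: P2rx6, Htr5a, Htr4, Grik3, Adra2b, P2ry14, Gria1, P2ry2, Gria3 and Adrb3. The 17 and the 12 include Glrb, which passed the filter only through its 18-month tumours. Leaving out each array in turn gave 19 to 29 calls between ages (37.7% to 50.5% of all genes), 0 to 0 between genotypes and 12 to 25 in the third comparison (18.6% to 41.4% of all genes). A filter at the 50th percentile left 21 receptor genes tested, of which 17 were called between ages (81.0%), against 51.5% of all genes. The count was lower because fewer genes were tested. The receptor share stood further above that of all genes than in the main fit (48.2% against 44.1%), so that comparison depends on the filter. With only the groups compared in the fit the counts were 20 between ages (35.7% of receptor genes, 41.3% of all genes), 1 between genotypes and 5 in the third comparison. Array weights gave 1 call between genotypes. The main fit took for each gene 1 spread shared by all 3 groups, which differed in spread. For Chrnb3 the SD was 0.05 in heterozygous tumours at 9 months, 0.25 in homozygous tumours and 0.69 at 18 months. The cause of these shifts, the part of unequal spreads included, was not tested. Same-numbered tumours of the 2 ages correlated at -0.127 to 0.327 in their deviations. Of the 6 pairs 4 were above 0.1 and 3 tumours correlated best with their own number, so by the rule that every pair be above 0.1 the tumours were not taken as paired. With the replicate block 25 receptor genes were called between ages (16 higher, 9 lower; 44.6%, against 42.8% of all genes), 0 between genotypes and 19 in the third comparison (33.9%, against 30.2%). The number of arrays limits what small differences could be called, and genes near 6.32 are limited by background.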
